A study of Homo sapiens with 9 samples.

Results

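ATP8B1, NOS1, CD1D and NXN are 4 genes picked because the TC/AVE and TC/CP lines, both selected with antibodies to the IGF-1 receptor, lay together on one side of parental TC-71 and of the kinase-inhibitor line TC/AEW. They are 4 of 14181 genes tested on HG-U133 Plus 2 arrays. On the probe sets used below, ATP8B1, NOS1 and CD1D stood higher in both antibody lines and NXN stood lower. A gene is read through its brightest probe set by the mean of the 9 arrays, among probe sets naming a single gene. Taken to the letter, that choice gave the pattern in 3 of the 4 genes. For ATP8B1 it picks 214594_x_at, of the _x_at class prone to cross-hybridisation, on which TC/AVE did not stand apart; the other probe set of the gene, 226302_at, showed the pattern. As _x_at probe sets were used only for genes with no other, 226302_at stands for ATP8B1 below and both are given.

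TC-71 is an Ewing sarcoma cell line. The labels name 3 TC-71 samples, not resistant to any IGF-1R drug, with 1 array each. TC/AEW was raised from TC-71 over 6 months in rising concentrations of NVP-AEW541, a small molecule that blocks the kinase of the receptor, up to 5 µM. TC/AVE was raised in the same way with AVE1642, an antibody to the receptor, at up to 10 µg/ml. Figitumumab, also an antibody to the receptor, was used for TC/CP, and its top concentration is not given in the sources used here. Each resistant line is a single line with 2 arrays, described as technical replicates, so each counted as 1 sample, for 6 samples in all. No TC-71 culture kept alongside for the selection period is named, so resistance and time in culture cannot be told apart. Whether drug was present at harvest is not given in the sources used here.

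Levels are log2 values, and a level under 5 is taken as near background, so differences from it are lower bounds. Array medians ran from 5.39 to 5.45. Over the genes tested, the technical replicate arrays correlated at 0.996 to 0.998 and the TC-71 samples at 0.962 to 0.983, which describes similarity across genes and not replicates. All 10 measured Ewing sarcoma markers passed the filter on low values, from CD99 at 12.82 to 13.00 in every sample down to LIPI at 7.01 in TC-71, 5.82 in TC/AEW, 5.23 in TC/AVE and 5.33 in TC/CP. LIPI was itself among the genes with both antibody lines below all other arrays, by 0.38. Of the other cell type lists, 2 of 5 blood markers (PTPRC, CD14), 2 of 4 epithelial (EPCAM, CDH1), 1 of 3 endothelial (CDH5), 2 of 3 liver (ALB, ABCB11) and 2 of 6 muscle and neuron markers (RBFOX3, STMN2) stayed under 5 on every array. Others read above 5 in TC-71, with HBB at 5.91, ITGAM at 5.57, KRT18 at 6.82, KRT8 at 5.72, PECAM1 at 6.14 and SYP at 6.16. KRT18 stood lower in the lines, at 5.88 in TC/AEW, 5.79 in TC/AVE and 5.65 in TC/CP. KRT8 did not, at 6.12 in TC/AEW, 6.11 in TC/AVE and 5.89 in TC/CP. The mean of the 4 epithelial markers was 4.96 to 5.05 in TC-71, 4.88 in TC/AEW, 4.83 in TC/AVE and 4.73 in TC/CP. The mean of 4 fibroblast markers was 5.85 to 7.20 in TC-71, 7.95 in TC/AEW, 6.07 in TC/AVE and 6.84 in TC/CP, and its part in the results was not tested. These markers did not move together. COL3A1 (8.31) and LUM (8.36) stood highest in TC/AEW, DCN in TC/AVE (7.71) and COL1A1 in TC/CP (9.04). In RNA from whole cultures, fewer cells of a type and less RNA per cell cannot be told apart.

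The 4 genes belong to different systems. ATP8B1 encodes a P4-ATPase, a flippase that moves phospholipids from the outer to the inner leaflet of the plasma membrane together with a CDC50 subunit, and it is best known from the bile canaliculus, where its loss causes cholestasis. NOS1 encodes the neuronal nitric oxide synthase, which makes nitric oxide from arginine when calcium-bound calmodulin is present and is best known in neurons and skeletal muscle. CD1D encodes a relative of the class I histocompatibility proteins that pairs with B2M and presents lipids to natural killer T cells. NXN encodes nucleoredoxin, a thioredoxin-related protein that binds Dishevelled and restrains WNT signalling.

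Because NOS1 and CD1D stood higher together and NXN lower, the bases upstream of their RefSeq starts (GRCh38.p14) are shown for comparison, 250 bases ending just before the first listed start of each gene. Windows were matched for 3 of the 4 genes. Capitals mark the letters GGGCGG (the GC box) and GGGGCGTGG, on either strand, which can lie next to each other and share bases. GGGGCGTGG was added to the search after the sequences were seen. NOS1 is at chr12:117309411-117309660 on the minus strand, CD1D at chr1:158179697-158179946 on the plus strand and NXN at chr17:979777-980026 on the minus strand.
NOS1: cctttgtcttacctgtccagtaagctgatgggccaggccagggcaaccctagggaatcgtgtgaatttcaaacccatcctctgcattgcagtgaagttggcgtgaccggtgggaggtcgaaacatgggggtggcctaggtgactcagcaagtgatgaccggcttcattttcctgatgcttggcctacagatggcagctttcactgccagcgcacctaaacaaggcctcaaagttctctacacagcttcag
CD1D: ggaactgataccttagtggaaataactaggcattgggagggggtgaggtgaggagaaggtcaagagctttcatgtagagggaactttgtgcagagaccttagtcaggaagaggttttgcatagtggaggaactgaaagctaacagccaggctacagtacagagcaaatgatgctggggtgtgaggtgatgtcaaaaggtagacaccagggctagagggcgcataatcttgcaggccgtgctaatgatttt
NXN: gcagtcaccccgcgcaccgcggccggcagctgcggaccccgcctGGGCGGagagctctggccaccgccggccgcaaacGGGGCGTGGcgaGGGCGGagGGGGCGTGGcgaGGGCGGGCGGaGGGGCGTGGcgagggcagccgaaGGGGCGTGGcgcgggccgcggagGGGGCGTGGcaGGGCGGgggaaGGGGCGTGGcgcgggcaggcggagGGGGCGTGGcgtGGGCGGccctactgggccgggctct

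The NXN window differed from the other two in composition. G and C made up 82.8% of the NXN window, 53.6% of the NOS1 window and 48.4% of the CD1D window, and 98.7% of 35116 RefSeq windows of this length held less G and C than that of NXN. The NXN window held 6 GC boxes and 7 copies of GGGGCGTGG. The first motif was in 42.6% of all windows and the second in 2.61%, with 9 windows holding at least 5 copies of the second. The second was added after the sequences were seen, so its rarity is no check on the NXN window. The windows of NOS1 and CD1D held neither. GGAAGGAA, a tandem of the core bound by ETS factors such as FLI1, was in 3.06% of all windows, the forkhead motif GTAAACA in 2.98% and TATAAA in 10.7%, and none of these letters stood in the 3 windows printed. A second listed start of CD1D and of NXN gave windows with 45.6% and 48.4% G and C and no match to any of the 5 motifs. A match is a description of letters and not a binding site, and a relation of the windows to the direction of the genes was not tested.

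ATP8B1 gave the widest difference of the 4 on 226302_at, and the smallest on 214594_x_at (0.21 against TC-71). On 226302_at it read 4.83, 6.06 and 5.43 in TC-71 samples 1, 2 and 3, and 4.50 and 4.78 on the TC/AEW arrays. The TC/AVE arrays read 7.52 and 7.59 and the TC/CP arrays 8.01 and 7.85. Every antibody-line array lay above every other array, by a gap of 1.47 between the nearest arrays, and TC-71 spanned more than any other group. The TC-71 mean was 5.44 ± 0.61 (SD, n = 3), and the antibody lines, averaged as 2 lines, stood 2.31 higher (4.94-fold) and at least 3.10 above TC/AEW, which was near background.

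The _x_at probe set of ATP8B1 read differently. On 214594_x_at TC-71 read 8.58, 8.17 and 8.14, TC/AEW 8.26 and 7.67, TC/AVE 8.16 and 8.26, and TC/CP 8.89 and 8.72. Only the TC/CP arrays lay above all of TC-71 and TC/AEW here, and TC/AVE lay within the TC-71 range. The TC/AVE mean stood at -0.09 against the TC-71 mean. The difference between the antibody lines and TC-71 was 0.21 on this probe set, smaller than the TC-71 SD of 0.25. The statement on ATP8B1 in TC/AVE therefore rests on 226302_at alone.

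NOS1 was read by 6 probe sets, of which 5 passed the filter on low values. On 239132_at, the brightest, TC-71 read 7.00, 7.60 and 7.15 and TC/AEW read 6.03 and 6.10. TC/AVE read 8.74 and 8.89 and TC/CP 8.18 and 8.07. The antibody-line arrays lay above all others by 0.48, and the order of the lines was TC/AVE, TC/CP, TC-71 and TC/AEW with no overlap between neighbours. Against TC-71 (7.25 ± 0.31, SD, n = 3) the antibody lines stood 1.22 higher (2.33-fold), and against TC/AEW 2.40 higher (5.30-fold).

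The other NOS1 probe sets split into those with and without the pattern. On 231916_at TC-71 read 5.28, 5.89 and 5.62, TC/AEW 4.55 and 4.63, TC/AVE 6.62 and 6.88, and TC/CP 6.71 and 6.52. The antibody lines again lay above all other arrays, by 0.62, and stood 1.09 above TC-71 and at least 2.09 above TC/AEW. On 240911_at the lowest TC/CP array met the highest TC-71 array, both at 6.10, so this probe set lay just outside the pattern, with differences of 0.62 from TC-71 and 1.33 from TC/AEW. The 2 remaining probe sets that passed, 207309_at and 207310_s_at, stood only 0.22 and 0.01 above TC-71, and their groups overlapped. The sixth, 1560974_s_at, stayed under 5 on every array. In all, 2 of the 6 NOS1 probe sets had every antibody-line array above the rest, as did 3.23% of the 26952 probe sets kept, and which transcripts each one reads was not tested.

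**Figure D1:**
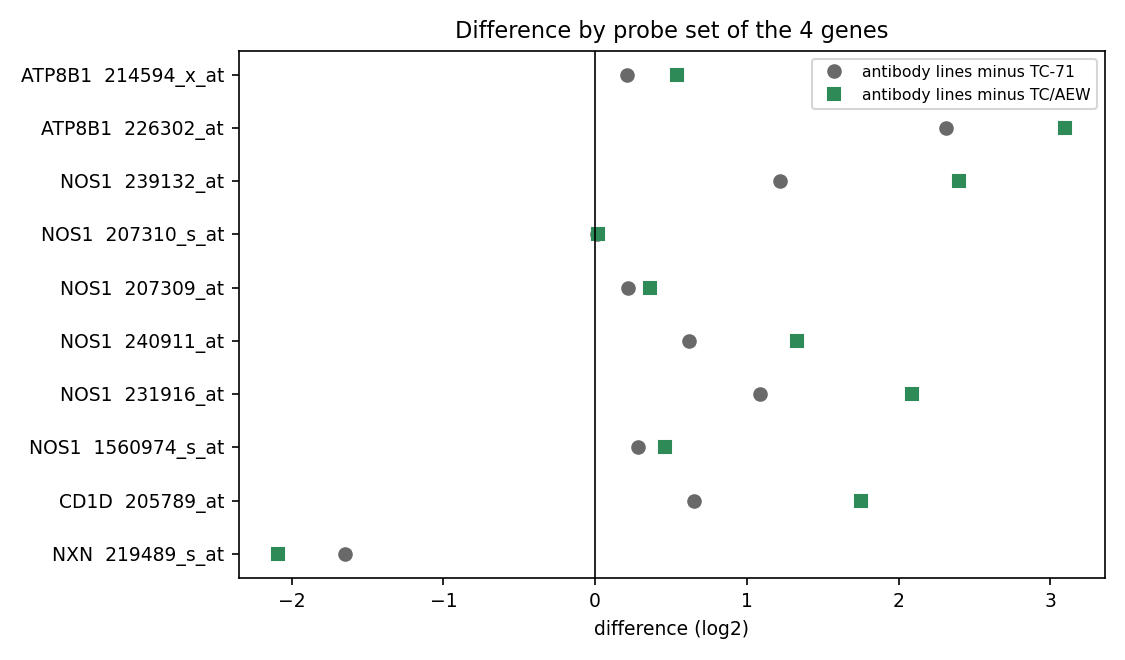
Difference on the log2 scale (x axis) between the mean of TC/AVE and TC/CP and the mean of TC-71 (circles) or TC/AEW (squares), for each probe set of ATP8B1, NOS1, CD1D and NXN (y axis). The differences of ATP8B1 run from 0.21 to 2.31 against TC-71 between its probe sets, and those of NOS1 from 0.01 to 1.22.

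CD1D was the dimmest of the 4 and its only probe set, 205789_at, lay close to background. It read 4.87, 4.43 and 4.80 in TC-71, 3.46 and 3.76 in TC/AEW, 5.24 and 4.98 in TC/AVE, and 5.72 and 5.47 in TC/CP. The antibody lines lay above all other arrays by only 0.11, the narrowest gap of the 4 genes, and 3 of the 9 arrays reached 5. Against TC-71 (4.70 ± 0.23, SD, n = 3) the difference was 0.65, and against TC/AEW 1.75. Every TC-71 and TC/AEW array and 1 TC/AVE array lay under 5, so neither value is a firm minimum. The gene passed the filter only through antibody-line arrays. The TC/AVE mean, 5.11, lay 0.41 above TC-71, and the TC/CP mean, 5.59, lay 0.90 above it. With the stricter minimum of 6 on 2 arrays CD1D would not have been kept.

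NXN was the one gene that stood lower in the antibody lines. Its only probe set, 219489_s_at, read 8.00, 8.18 and 8.19 in TC-71, 8.40 and 8.72 in TC/AEW, 6.50 and 5.97 in TC/AVE, and 6.78 and 6.64 in TC/CP. Every antibody-line array lay below every other array, by 1.22, and the TC-71 samples were close together (8.12 ± 0.11, SD, n = 3). The antibody lines stood at -1.65 against TC-71 (3.14-fold lower) and at -2.09 against TC/AEW (4.24-fold lower). The TC/AVE arrays differed by 0.53 from each other, the widest spread between technical replicates of an antibody line among the 4 genes.

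**Figure D2:**
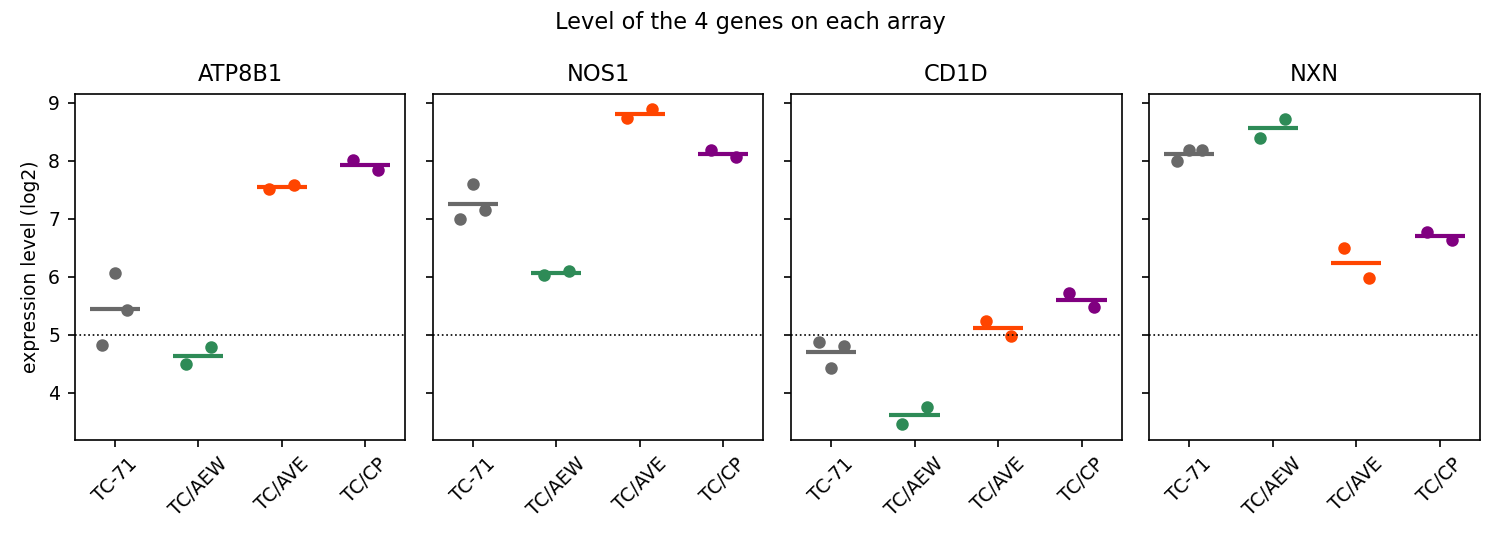
Log2 expression level (y axis) of ATP8B1 (226302_at), NOS1 (239132_at), CD1D and NXN on each of the 9 arrays, grouped by line (x axis). Points are arrays, bars are group means and the dotted line marks the level of 5 under which a value is taken as near background. TC/AVE and TC/CP lie above TC-71 and TC/AEW for the first 3 genes and below them for NXN.

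How common this arrangement was over all genes tested is a background figure, from which nothing is read about the 4, since they were picked by it. Every antibody-line array lay above every TC-71 and TC/AEW array in 500 genes (3.53%) and below in 326 (2.30%). By the width of the gap, NXN ranked 2 among the 326. Among the 500, ATP8B1 ranked 1 on 226302_at, NOS1 15 and CD1D 182. On 214594_x_at of ATP8B1 the arrays overlapped, so there was no gap to rank. The other genes with the widest gaps above were NRCAM, a neural adhesion molecule (gap 1.08), UBE2QL1 (0.92), the protein kinase PRKD1 (0.89) and the adhesion protein AMIGO2 (0.76). Below, they were SCML1 (1.56), the synaptic vesicle protein SV2B (0.95), KASH5 (0.91) and ACAA2, a thiolase of mitochondrial fatty acid oxidation (0.87). In AMIGO2 the nearest arrays were 4.73 in TC/AVE and 3.98 in TC/AEW, both under 5, and only the TC/CP arrays (5.21 and 5.47) took it past the filter. TC/AEW stood at -0.80 against TC-71 in ATP8B1 and at -0.28 in UBE2QL1, and at 0.65 in NRCAM, 1.38 in PRKD1 and 0.32 in AMIGO2.

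**Figure D3:**
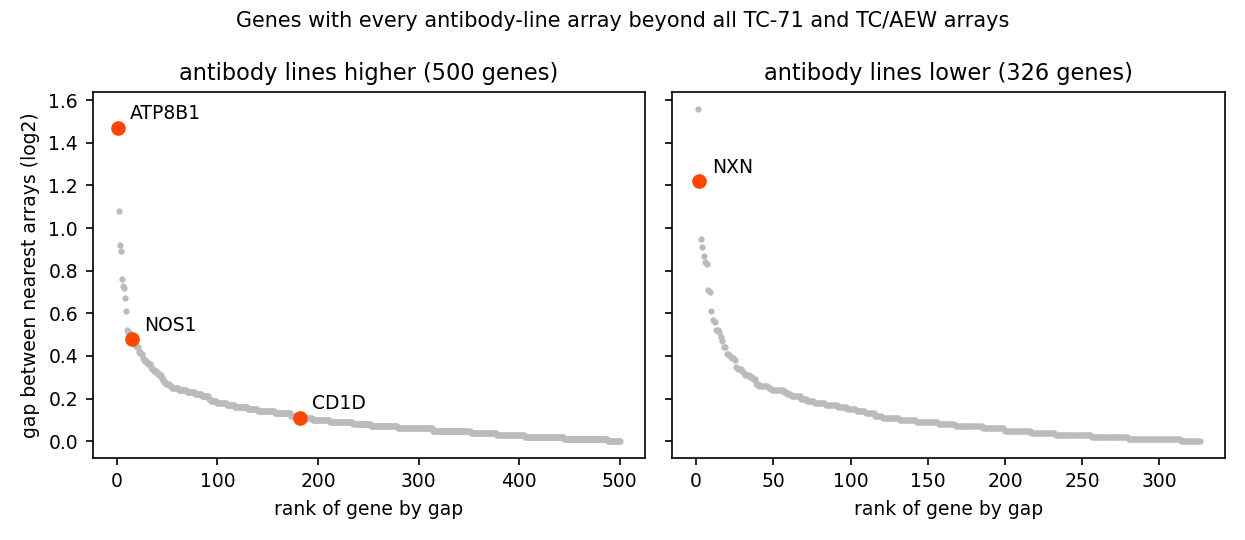
Gap in log2 units between the nearest arrays (y axis) for the 500 genes with both antibody lines above, and the 326 with both below, all TC-71 and TC/AEW arrays, ranked from the widest gap (x axis). Large points mark the 4 genes, with ATP8B1 (226302_at) at 1.47, NXN at 1.22, NOS1 at 0.48 and CD1D at 0.11.

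The position of TC/AEW was shared by the 4 genes, for ATP8B1 on 226302_at alone. In TC/AEW, ATP8B1 stood 0.80 below the TC-71 mean, NOS1 1.18 below and CD1D 1.09 below, while NXN stood 0.44 above. For CD1D every TC-71 and TC/AEW array was under 5, and the gene passed the filter only through antibody-line arrays, so this order lies within background. Both TC/AEW arrays lay beyond all 3 TC-71 arrays on the side away from the antibody lines in each of the 4. For ATP8B1 the nearest arrays were 4.78 in TC/AEW and 4.83 in TC-71, both under 5. On 214594_x_at the first TC/AEW array, at 8.26, lay within the TC-71 range of 8.14 to 8.58. This fuller arrangement, with TC-71 in the middle, was found in 48 genes, 5.81% of the 826 genes with the antibody lines beyond and 0.338% of all genes tested. It is a description with no test, since TC/AEW was part of how the genes were picked. The differences from TC/AEW and from TC-71 share the antibody lines.

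The difference between the antibody lines was not used to pick the genes and was tested with limma over all 14181 genes. The TC/AVE and TC/CP arrays did not overlap in any of the 4, which was the case in 71.3% of all genes, with TC/CP above TC/AVE in ATP8B1, CD1D and NXN and below it in NOS1. None of the 4 passed an adjusted p of 0.05, where 0% of all genes were called. NOS1 was 0.69 ± 0.37 (SE) higher in TC/AVE than in TC/CP (8.81 against 8.13, adjusted p = 1.00 by limma, unadjusted p = 0.123). ATP8B1 was -0.38 ± 0.60, CD1D -0.48 ± 0.32 and NXN -0.47 ± 0.26 in TC/AVE relative to TC/CP, each with adjusted p = 1.00 by limma. With 1 sample per line only TC-71 gave a spread, and the lowest adjusted p of any gene was 0.221. At an unadjusted p under 0.05 there were 816 genes. These values do not show that the antibody lines were alike in the 4 genes. Those of CD1D are also limited by background. It passed the filter only through antibody-line arrays, and the second TC/AVE array, at 4.98, lay under 5.

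The arrays fall into 3 sets by the array file names in the labels: one with TC-71 sample 1 alone, one with TC/AEW, TC/AVE and TC-71 sample 2, and one with TC/CP and TC-71 sample 3. Each TC-71 sample lies in a different set, so the TC-71 spread includes any difference between sets. TC/AVE and TC/CP also lie in different sets, so the fit to 6 samples cannot tell line from set between them. On the probe sets tested, no antibody-line array overlapped TC-71 or TC/AEW. The directions of the antibody lines within sets were therefore fixed by the choice of genes and are no check. ATP8B1, on 226302_at, stood 1.50 higher in TC/AVE than in TC-71 sample 2 and 2.50 higher in TC/CP than in TC-71 sample 3. For NOS1 these values were 1.22 and 0.97, for CD1D 0.68 and 0.80, and for NXN -1.94 and -1.48. TC/AVE and TC/AEW share a set, and between them ATP8B1 differed by 2.92, NOS1 by 2.75, CD1D by 1.50 and NXN by -2.32. TC/AEW against TC-71 sample 2 gave -1.42, -1.53, -0.83 and 0.38 in the same order. Other probe sets were not all alike. On 214594_x_at of ATP8B1, TC/AVE stood only 0.04 above TC-71 sample 2, and TC/CP stood 0.67 above TC-71 sample 3. For NOS1, TC/CP stood at -0.09 against TC-71 sample 3 on 207310_s_at and at -0.01 on 207309_at. The remaining NOS1 probe sets gave positive values for both antibody lines.

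Taking each antibody line against the TC-71 sample of its own set changed the comparison of TC/AVE with TC/CP. The difference became -1.00 for ATP8B1, 0.24 for NOS1, -0.12 for CD1D and -0.46 for NXN. With 6 samples such a fit leaves no spread to test against. With the 9 arrays taken as samples, which counts technical replicates as samples, and the set as a block, limma gave ATP8B1 an adjusted p of 0.00680. For NOS1 the 9 arrays gave an adjusted p of 0.0450 without a block and 0.0593 with the replicate number as a block. Over the alternatives run, the adjusted p by limma ranged from 0.00680 to 1.00 for ATP8B1, 0.0450 to 1.00 for NOS1, 0.135 to 1.00 for CD1D and 0.147 to 1.00 for NXN. Leaving out 1 TC/AVE array moved NXN from -0.47 to -0.73 (without replicate 1) or -0.21 (without replicate 2).

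Among themselves, over the 6 samples, ATP8B1 and NOS1 correlated at 0.907, and each correlated with NXN at -0.910 and -0.908. CD1D was less close, at 0.764 with ATP8B1, 0.789 with NOS1 and -0.775 with NXN. The shared choice of the 4 genes fixes the signs. Among 2893 other genes whose 6 values spanned at least 1, those most like ATP8B1 were OLFM3 (r = 0.983), UBE2QL1 (0.968) and LINC01116 (0.944). Those most like NOS1 were the metallothionein MT1X (0.968), the matrix protein SPARC (0.939) and ATP8B1 itself. CD1D was most like DUSP5, a phosphatase of ERK (0.950), KIRREL1 (0.928) and the ETS factor FEV (0.900). CD1D was under 5 in every TC-71 sample and in TC/AEW, so its correlations rest largely on values near background. NXN was most like ZSWIM7 (0.981), CRMP1 (0.976) and IFT27 (0.958). All points share the same arrays and only 6 samples enter, so these values are descriptions.

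Genes related to each of the 4 were taken from lists, and none passed an adjusted p of 0.05 by limma in any of 4 comparisons (antibody lines against TC-71, antibody lines against TC/AEW, TC/AEW against TC-71, TC/AVE against TC/CP), where 0% of all genes passed. At an unadjusted p under 0.05 these comparisons held 932, 263, 501 and 816 genes. The flippase list had 9 measured genes past the filter out of 16 listed, and all 9 stood higher in the antibody lines than in TC-71, with a median of 0.15 beside -0.01 over all genes. The smallest difference was 0.03, in ATP10A, and the share of all genes that stood higher was not counted. None of the 9 had every antibody-line array above or below TC-71 and TC/AEW, and with 3.53% and 2.30% of all genes doing so, nothing is read from this. The level of ATP9A was 6.47 ± 0.54 (SD, n = 3) in TC-71, 7.19 in TC/AEW, 7.65 in TC/AVE and 7.30 in TC/CP. In the same order ATP11B read 8.26 ± 0.34, 8.92, 9.58 and 8.87. ATP11A read 7.10 ± 0.38, 7.31, 7.76 and 7.35. Unlike ATP8B1, these 3 flippases read higher in TC/AEW than in the TC-71 mean. ATP10D stood 1.95 above TC-71 in TC/AEW and only 0.15 above it in the antibody lines.

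Of 34 listed genes of nitric oxide synthesis and signalling, 23 were tested, 11 higher and 12 lower in the antibody lines than in TC-71, with a median of 0.00. Of the 23, 1 had every antibody-line array above and 2 every array below TC-71 and TC/AEW, beside 3.53% and 2.30% of all genes. SLC7A2, a transporter of arginine and other cationic amino acids, read 7.88, 8.40 and 8.32 in TC-71, 7.09 on both TC/AEW arrays, 5.23 and 5.04 in TC/AVE, and 6.94 and 6.96 in TC/CP. It stood lowest in TC/AVE, and its lowest adjusted p over the 4 comparisons was 0.219 by limma. DDAH2, of the family that breaks down methylated arginines, read 8.06 ± 0.29 (SD, n = 3) in TC-71, 7.53 in TC/AEW, 7.11 in TC/AVE and 6.97 in TC/CP. GCH1, which starts the synthesis of the cofactor tetrahydrobiopterin, read 7.80 ± 0.61, 8.60, 8.73 and 8.79 in the same order, with a gap of only 0.01 between the antibody lines and the nearest array.

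The list of CD1 proteins and lipid antigen presentation had 25 of 30 genes tested, 11 higher and 14 lower in the antibody lines than in TC-71, with a median of -0.04. Of the 25, 3 had every antibody-line array above all others and 1 below, beside 3.53% and 2.30% of all genes. B2M, the partner of CD1D, read between 12.80 and 13.14 in TC-71, 13.24 on both TC/AEW arrays, 13.46 and 13.44 in TC/AVE, and 13.25 and 13.27 in TC/CP. The B2M gap was 0.01, and its difference from TC-71 was 0.41. The protease CTSL read 7.78 ± 0.41 (SD, n = 3) in TC-71, 8.25 in TC/AEW, 8.48 in TC/AVE and 8.77 in TC/CP. AP2S1, a clathrin adaptor subunit, stood 0.21 above TC-71, and PSAP, the precursor of the saposins that load lipids, stood at -0.16. The cholesterol transporter NPC1 (0.59) and the adaptor subunit AP2A1 (-0.49) were further apart from TC-71, with overlapping arrays.

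The thioredoxin-like and Dishevelled list had 30 of 34 genes tested, 16 higher and 14 lower in the antibody lines than in TC-71, with a median of 0.00, and 1 of them with every antibody-line array below all others, beside 2.30% of all genes. That gene was TXNDC17, which read 11.45 ± 0.07 (SD, n = 3) in TC-71, 11.28 in TC/AEW, 10.98 in TC/AVE and 11.21 in TC/CP, with 11.22 and 11.23 as the nearest arrays. AXIN2, a WNT target and scaffold of the destruction complex, read 6.78 ± 0.60, 6.86, 7.03 and 7.79 in the same order. TXNIP, which binds thioredoxin, varied within TC-71 (8.29, 10.59 and 7.96) more than between the lines. The mitochondrial thioredoxin TXN2 read 9.91 ± 0.24, 9.59, 9.21 and 9.60. None of the 30 genes was 1 or more apart from TC-71 in the antibody lines on the log2 scale, as NXN was, beside 1.42% of all genes at least 1 higher and 0.733% at least 1 lower.

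**Figure D4:**
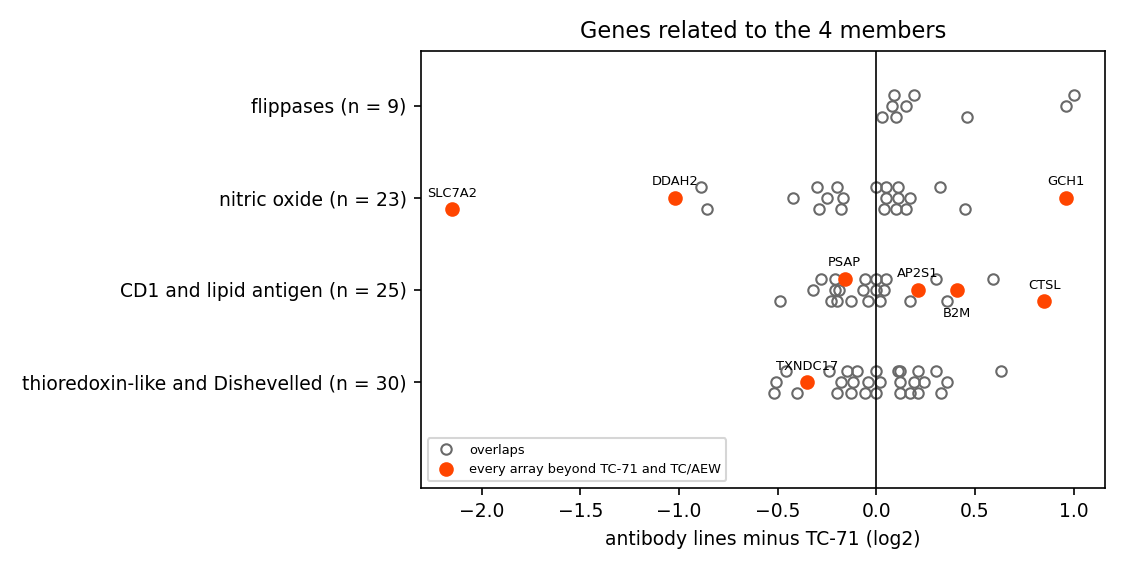
Difference between the mean of TC/AVE and TC/CP and the mean of TC-71 on the log2 scale (x axis) for the tested genes of the 4 related lists (y axis), with ATP8B1, NOS1, CD1D and NXN left out. Filled points are genes with every antibody-line array beyond all TC-71 and TC/AEW arrays, and open points are genes whose arrays overlap. The points of the flippase list all lie above 0, and SLC7A2 lies farthest from 0, at -2.15.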

How the data were processed

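The submitters' processing notes name RMA and affy without a version, and the deposited values are log2 levels per probe set. RMA fits probes across arrays and compresses differences near background. Of 54675 probe sets, 62 controls were left out, 41091 of the rest named 1 gene, 1801 several and 11721 none. Single-gene probe sets were kept where 2 of 9 arrays reached 5 (26952). Each gene took its probe set with the highest mean, _x_at only where it had no other. Technical replicates were averaged, and limma 3.58.1 in R 4.3.3 was fitted to 6 samples in 4 groups (2 residual and 3.00 prior degrees of freedom), two-sided, with Benjamini-Hochberg adjustment over 14181 genes at 0.05. The code was tested on simulated data. In the fit to 6 samples the residual spread came from the 3 TC-71 samples alone. With 9 arrays as samples it included differences between technical replicates. No p-value measures a spread between samples of a resistant line, and having 1 sample per line limits precision.

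The genes and lists were chosen with earlier results of these data known. Named genes were the 4, the 3 most correlated genes per member, the 3 related genes per list farthest from TC-71, related genes with the pattern, which were added after the data were seen, and the 5 widest gaps per direction. Alternatives were other probe sets, filters, normalizations, array sets, technical replicates as samples, a variance trend and leaving out arrays.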

Additional observations from a re-analysis of the deposited data

Results flagged for a closer look

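On the probe sets tested, with 226302_at for ATP8B1, the lines lay on opposite sides of every TC-71 array in the 4 genes, TC/AEW on one side and TC/AVE and TC/CP on the other. On 214594_x_at of ATP8B1 they did not, and for CD1D all TC-71 and TC/AEW arrays were under 5, near background. TC/AVE minus TC/AEW was 2.92 for ATP8B1, 2.75 for NOS1, 1.50 for CD1D and -2.32 for NXN on the log2 scale. TC/CP minus TC/AEW was 3.29 for ATP8B1, 2.06 for NOS1, 1.99 for CD1D and -1.85 for NXN. These differences were not tested, since the genes were picked by them, and none of the related genes named lay this way.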

How the results depend on the processing

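For ATP8B1, NOS1, CD1D and NXN, no single alternative turned the difference between the mean of the antibody lines and TC-71 or TC/AEW. None turned TC/AVE minus TC/CP. Taken singly, a line did turn on another probe set. TC/AVE stood at -0.09 against the TC-71 mean on 214594_x_at of ATP8B1. TC/CP stood at -0.11 against it on 207310_s_at of NOS1, and there also lay below TC/AEW (6.45 against 6.56). Combining another probe set with the array set as a block turned TC/AVE minus TC/CP for NOS1 from 0.14 to -0.14 on 231916_at and from 0.04 to -0.08 on 1560974_s_at. Size depended on the probe set for ATP8B1 and NOS1, whose means over all probe sets stood 1.26 and 0.57 above TC-71. Leaving out 1 array, the difference from TC-71 ran from 2.00 to 2.61 for ATP8B1, 1.10 to 1.40 for NOS1, 0.52 to 0.74 for CD1D and -1.78 to -1.52 for NXN. On the probe sets tested the arrays compared did not overlap, so leaving out 1 array could not turn a direction. Genes with both antibody lines beyond all other arrays numbered 826, 762 to 874 under other filters, and 1033 to 1189 without 1 TC-71 sample.

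The count of genes called by limma was 0 in each of the 4 comparisons, also under each filter and normalization and without any 1 array. With a variance trend 1 gene was called between TC/AVE and TC/CP (NT5E, -3.21, adjusted p = 0.0489 by limma). Taking 9 arrays as samples counts technical replicates as samples and called 1897 genes for TC/AVE against TC/CP, 1261 for the antibody lines against TC-71, 295 for them against TC/AEW and 547 for TC/AEW against TC-71. With the replicate number as a block these were 1798, 1057, 238 and 350; the number pairs nothing in the labels. With array set as a block they were 3070, 4283, 1590 and 2625. With 6 samples the set block leaves no residual degrees of freedom. CD1D lies close to background, which limits its values.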

Other observations

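Of the 48 genes with TC-71 between TC/AEW and the antibody lines, 19 stood higher and 29 lower in the antibody lines, and 4 were ATP8B1, NOS1, CD1D and NXN. The following were chosen after their values were seen, as the next farthest from TC/AEW. PI15 stood at 4.25 in TC-71, 5.42 in TC/AEW, 3.40 in TC/AVE and 3.77 in TC/CP. Only the TC/AEW arrays took it past the filter, and the order of TC-71 and the antibody lines lies within background. MAOA, the monoamine oxidase that breaks down serotonin and noradrenaline, stood at 5.78, 7.05, 5.28 and 5.39 in the same order. OLFM3 stood at 8.39, 7.88, 9.21 and 9.79. AMER2, a membrane protein that binds APC, stood at 7.94, 8.57, 6.90 and 7.04. LPAR3, a receptor for lysophosphatidic acid, stood at 6.03, 6.70, 4.87 and 5.41. The carnitine palmitoyltransferase CPT1C stood at 6.98, 7.41, 5.54 and 6.43.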
